A study of Mus musculus with 16 samples.

Results

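The genes described here encode the proteins of the cytoplasmic ribosome, found in the tables by symbols that start with Rpl (large subunit) or Rps (small subunit) followed by a number and at most 1 letter, with pseudogene symbols left out. The rule took 75 of the 19707 genes listed in at least 1 table, 44 of the large and 31 of the small subunit. A further 4 symbols of this form in the GENCODE vM21 annotation (Rpl10l, Rpl32l, Rpl3l and Rpl6l) were not analysed here. The rule itself used no measured change, only a mean of at least 10 normalized counts in a table. These genes were, however, chosen with earlier results of these data known. Rpl39l, a paralogue of Rpl39, was the only listed gene near that limit, with a mean of 9.12 in the uninjured loss table, where it was not tested, and 11.8 in the gain table, where it was. Rps4x, Rps24 and Rpl39l were not analysed in infused loss, whose table listed the other 72. So 74 were tested in uninjured loss, 72 in infused loss and 75 in infused gain.

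A cytoplasmic ribosome joins a small subunit, which reads the messenger RNA, to a large subunit, which forms the peptide bond. Their proteins are made in near equal amounts, and most of their messenger RNAs begin with a terminal oligopyrimidine tract, a C followed by a run of C and T, through which mTOR and the RNA-binding protein Larp1 control translation. These genes have many processed pseudogenes, intronless copies that can be nearly identical to the coding sequence, so a short read may fit a gene and its copy alike. In fibroblasts of an injured heart, ribosomal proteins are of interest because activated cells make large amounts of matrix protein.

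The libraries came from cardiac fibroblasts sorted from hearts of mice aged 8 to 12 weeks. All mice carried a Rosa26 EGFP reporter behind a floxed stop and all received tamoxifen. Loss of Tcf21, a basic helix-loop-helix factor of the fibroblast lineage, was made with Tcf21-MerCreMer and a floxed Tcf21, and its controls carried Tcf21-MerCreMer alone, so Cre was driven from the Tcf21 locus itself in both groups. The uninjured arm had 3 control and 3 deleted libraries, from hearts collected 2 weeks after the drug. After infusion of angiotensin II and phenylephrine for 1 week the loss arm had 3 control and 2 deleted libraries. In the gain arm a Col1a1-TCF21 transgene was switched on by Pdgfra-creERT, with Pdgfra-creERT alone as control, and the arm had 3 control and 2 TCF21 libraries, all infused in the same way. No label ties each library to an animal of its own, and the p-values therefore describe library-to-library spread alone, which may be technical.

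Sums of normalized counts per library ran from 27814940 to 40970391, and Tcf21 itself moved as labelled: 5.61-fold lower in uninjured loss, 8.98-fold lower in infused loss and 2.44-fold higher in gain (limma, Benjamini-Hochberg adjusted p = 4.22e-05, 0.00494 and 0.00446). Of 9 marker lists, that of fibroblasts (8 of 8 genes listed) summed to between 1658000 and 4102000 in every library. The sums were 371 to 974 for cardiomyocytes, 450 to 4898 for myeloid cells and 60.4 to 855 for red cells and platelets, and 25200 to 38120 for mural cells. No listed marker was at 0 in every library of a table. In bulk RNA, fewer cells of a type and less RNA per cell cannot be told apart.

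Because several results below change when the values of listed copies are added, the stretches that tell gene and copy apart are shown first. Of the 75 genes, 44 had at least 50% and 16 at least 75% of their stretches of 31 bases, on either strand, in a single other annotated gene. For 30 genes such a gene, sharing at least 10%, had a row of its own in the tables. A listed pseudogene of the same symbol was found for 9 genes (Rpl13, Rpl14, Rpl17, Rpl27a, Rpl31, Rpl34, Rps15a, Rps18 and Rps6). Of these, Rpl27a entered by the symbol alone, since Rpl27a-ps4 was not matched to the annotation, so 31 genes were set apart in all. No gene had a control level over 4-fold from the other tables. Rpl26 (chr11:68901583-68906989, plus strand, GRCm38) and the processed pseudogene Gm15772 (chr5:3236431-3236868, plus strand) aligned over all 438 coding bases of Rpl26 with 2 differences. Positions count from 1 at the A of the start codon, and the member's base is given first. C177T lies in exon 3 of Rpl26, and its window joins exons 2 and 3 (chr11:68902437-68903202, with the intron between them). T288C lies in exon 3 (chr11:68903284-68903313). In the lines that follow, capitals mark the differing base.
Rpl26 at C177T: gttcaggttgttcgCggacactacaaaggc
Gm15772 at C177T: gttcaggttgttcgTggacactacaaaggc
Rpl26 at T288C: ggcacaaccgtccaTgtgggcatccacccc
Gm15772 at T288C: ggcacaaccgtccaCgtgggcatccacccc

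Rpl30 (chr15:34440505-34443640, minus strand) and the processed pseudogene Gm12191 (chr11:49678710-49679057, minus strand) aligned over all 348 coding bases with a single difference, G96A in exon 2 (window chr15:34442691-34442720). Rps18 (chr17:33951999-33956001, minus strand) aligned over 542 bases with the reverse strand of Rps18-ps4, which GENCODE lists as the long noncoding RNA Gm26619 (chr13:97751112-97760965, plus strand). They had 5 differences, 4 of them in the 459 coding bases, and T186C in exon 3 is shown (window chr17:33952493-33952522). Rps6 and Rps6-ps4 aligned over all 750 coding bases with 0 differences, so no read inside the coding sequence can tell them apart.
Rpl30 at G96A: gtgctgggctacaaGcagactctgaagatg
Gm12191 at G96A: gtgctgggctacaaAcagactctgaagatg
Rps18 at T186C: gaactcacggaggaTgaggtggagcgagtg
Rps18-ps4 at T186C: gaactcacggaggaCgaggtggagcgagtg

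Together the ribosomal protein genes held 0.724% ± 0.0080 (SD, n = 3) of the summed normalized counts in uninjured controls of the loss arm, 0.535% ± 0.064 (SD, n = 3) in the infused controls and 0.622% ± 0.044 (SD, n = 3) in controls of the gain arm. These shares come from 3 tables normalized separately, so they are set side by side and not compared. Per kilobase of transcript, Rpl13 and Rpl41 had the highest control means in each table: Rpl13 had 16641, 9144 and 13659 and Rpl41 had 12078, 8629 and 14702 normalized counts per kilobase in uninjured loss, infused loss and gain controls. Rpl39l was the lowest by far, with 27.0 in uninjured controls and 23.3 in gain controls. Rps20, next lowest among the listed genes, was divided by a reference transcript of 3706 bases. The order of the control means, over the 72 genes in all tables, was nearly the same in each pair of tables (Spearman's rho 0.981 to 0.987, across genes, which are not independent replicates and share lengths).

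The spread between controls was small without injury and wider after infusion. The median SD of log2 values over the 3 controls was 0.066 for ribosomal protein genes in the uninjured table, against 0.14 for all genes tested. It was 0.21 against 0.17 in the infused loss table and 0.15 against 0.18 in the gain table. The infused loss controls differed among themselves as a group: the median deviation of the 72 genes from the control mean, on the log2(value + 1) scale used for every fold change here, was 0.20 in control 1, -0.19 in control 2 and 0.00 in control 3. In the gain arm control 3 stood below the others, with a median deviation of -0.16 against 0.07 and 0.10. Most genes shared their library's deviation: the middle 50% lay between 0.13 and 0.28 in infused loss control 1 and between -0.25 and -0.17 in control 2.

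**Figure D1:**
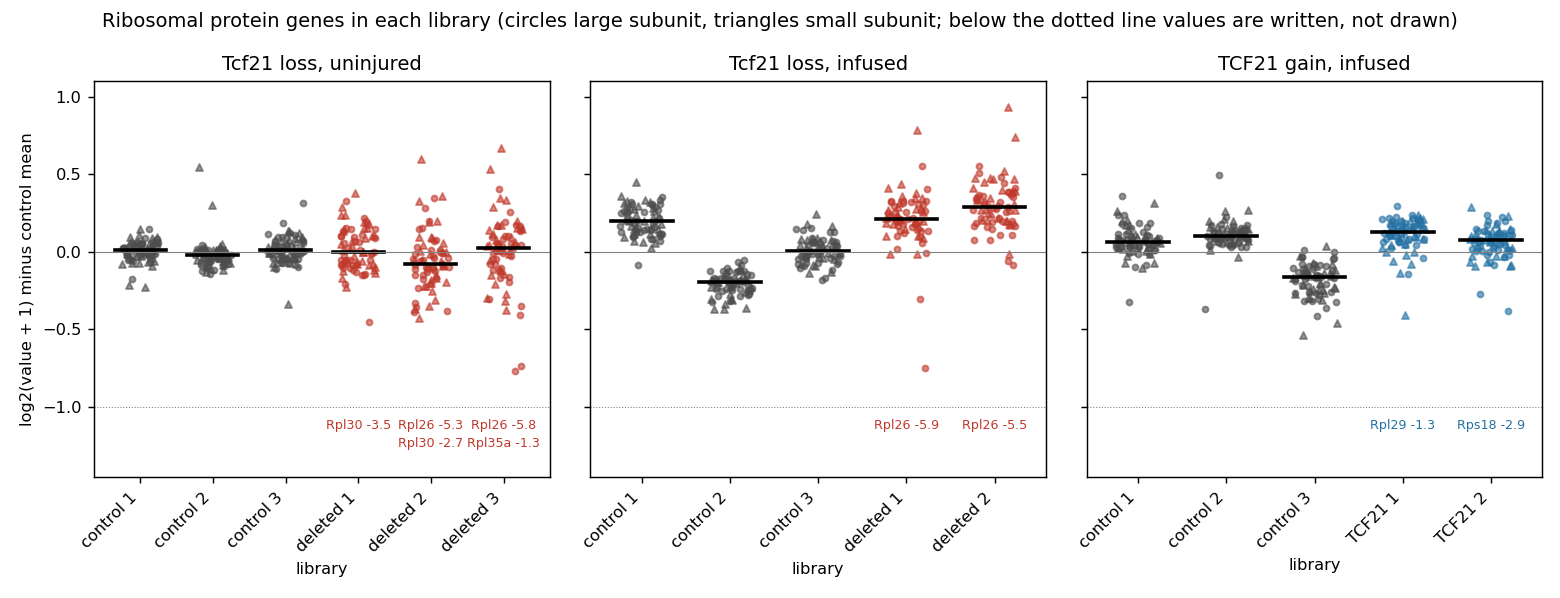
Deviation of each tested ribosomal protein gene from its control mean, log2(value + 1), in each library (vertical axis), with the library on the horizontal axis; bars are medians, and genes below -1 are named with their value instead of drawn. Most genes of a library sit close to its median, the infused loss controls run from -0.19 to 0.20, and Rpl26, Rpl30, Rpl29, Rpl35a and Rps18 lie below -1 in 1 to 4 libraries each.

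Without injury, loss of Tcf21 left most ribosomal protein genes near their control levels. Of the 74 tested, Rpl10 alone passed the threshold (limma, Benjamini-Hochberg adjusted p below 0.05), so 1 of 74 was higher, beside 1.63% of all 15544 genes, and 0 were lower, beside 1.96%. An unadjusted p under 0.05 was found for 14. For this count and those like it below, the share of all genes is not given, so they are not read as results. Their median log2 fold change was -0.04 beside -0.01 for all genes, with the middle 50% between -0.11 and 0.07, and 31 lay above and 43 below 0, where 7535 of all genes lay above. With a smooth curve of fold change on transcript length removed (Spearman's rho of -0.22 between them across genes), the median was -0.13. The large subunit had a median of -0.04 (16 of 43 above 0) and the small subunit of -0.04 (15 of 31 above 0). The libraries did not overlap between groups, deleted higher, for 11 genes, beside 14.1% of all genes, and deleted lower for 17, beside 13.6%. Mural cell markers (7 of 7 listed, 3 past the threshold, lower) summed to between 33150 and 37380 in the controls and between 28170 and 31930 in the deleted libraries. Fibroblast markers (8 of 8 listed) summed to between 3760000 and 4102000 against 3540000 and 3661000. Tcf21 itself is among them and was the only one past the threshold, lower. Of the 8 fibroblast markers 5 lay above 0, with a median log2 fold change of 0.03. Myeloid markers (9 of 9 listed) summed to between 1191 and 1293 against 1304 and 2108, and those of red cells and platelets (6 of 7 listed) to between 191 and 200 against 201 and 855. The part of these cells in the values was not tested.

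Rpl10, a large subunit protein at the core of the ribosome that is needed for subunit joining, lies on the X chromosome (chrX:74270812-74273135, plus strand). It had 8170, 7841 and 7624 normalized counts in the controls and 9860, 9569 and 10443 in the deleted libraries. Each deleted library was above each control. Of the 31-base stretches of Rpl10, 92.3% also occur in Rpl10-ps3, for which no row was found, so that copy could not be added. Rpl10 was 1.26-fold higher (log2 fold change 0.34, SE 0.07, adjusted p = 0.041, limma). The call was lost under 10 of 18 alternatives, with adjusted p from 0.0278 to 0.183 and log2 fold changes above 0 in all 18. Among them were the 5 fits that left out 1 of the 3 controls, deleted library 2 or deleted library 3, with log2 fold changes of 0.30 to 0.37. Rps6, the small subunit protein phosphorylated by the S6 kinases downstream of mTOR, had 1094, 1082 and 1047 in the controls and 1313, 1349 and 1559 in the deleted libraries, with groups apart but an adjusted p of 0.075 (limma). Its copy Rps6-ps4 held 78.7% to 84.9% of their summed value in all 16 libraries, and Rps6 plus the copy had a log2 fold change of 0.07 (SE 0.07).

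Other genes differed by amounts that did not pass. In the small subunit Rps7 had a log2 fold change of -0.29 (SE 0.10). In the large subunit Rpl37 had 3082, 2885 and 3289 in the controls and 2792, 2351 and 2322 in the deleted libraries. Both genes had no overlap between groups, and the adjusted p was 0.142 for Rps7 and 0.117 for Rpl37 (limma, n = 3 per group). Rpl35a was at 636 in deleted library 3 and between 1498 and 1734 in the other 5 libraries. Its listed copies Gm10029 and Gm14279 summed to 151 in deleted library 3 and to between 11.8 and 26.7 in the others. With the copies added, deleted library 3 stayed low, at 787 against 1513 to 1760, with a log2 fold change of -0.34 (SE 0.25). Rpl5 and Rpl11, which outside the ribosome can hold the p53 regulator Mdm2, had log2 fold changes of 0.14 (SE 0.07) and -0.16 (SE 0.08), with groups apart in opposite directions and neither past the threshold.

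The lowest values of the uninjured comparison belonged to genes with a listed copy. Rpl26, a large subunit protein near the exit of the peptide tunnel, had 3565, 3259 and 3446 normalized counts in the controls and 3674, 83.3 and 60.5 in the deleted libraries. Deleted library 1 lay above the controls and the other 2 far below them (adjusted p = 0.14, limma). Gm15772 had 1.74, 1.06 and 5.13 in the controls and 86.8, 3494 and 3723 in the deleted libraries. The sum of Rpl26 and Gm15772 was 3566, 3260 and 3452 in the controls and 3761, 3578 and 3783 in the deleted libraries, a log2 fold change of 0.11 (SE 0.08). The highest library of the table was 60.8 times the lowest for Rpl26 alone and 1.16 times for the sum. In each library 1 of the 2 rows was high and the other low, and their total was nearly constant.

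Rpl30, a large subunit protein at the face between the subunits, also had low values where its copy was high, in all 3 deleted libraries. It had 2167, 2030 and 2063 in the controls and 179, 316 and 1250 in the deleted libraries (log2 fold change -2.33, SE 0.57, adjusted p = 0.058, limma), with no overlap. Gm12191 had 20.8, 12.7 and 9.23 in the controls and 1412, 1541 and 856 in the deleted libraries. Their sum was 2188, 2043 and 2072 in the controls and 1591, 1857 and 2106 in the deleted libraries, with a log2 fold change of -0.19 (SE 0.11, adjusted p = 0.36). Deleted library 1, where Rpl26 kept its level, was the library with the lowest Rpl30. Rpl34 was low in deleted library 3 alone, where it had 1222 and Rpl34-ps1 948. In the other 5 libraries Rpl34 had 1950 to 2356 and the copy at most 48.9.

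Rps18, of the small subunit's head, differed from its copy among the controls. It had 3038, 5138 and 2794 in the controls and 4574, 5324 and 5585 in the deleted libraries. Rps18-ps4 had 1477, 168 and 1274 in the controls and 146, 154 and 181 in the deleted libraries, so it took 31.3% to 32.7% of the sum in controls 1 and 3 and 2.81% to 3.17% in the other 4 libraries. The sum had a log2 fold change of 0.20 (SE 0.12, adjusted p = 0.35, limma).

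**Figure D2:**
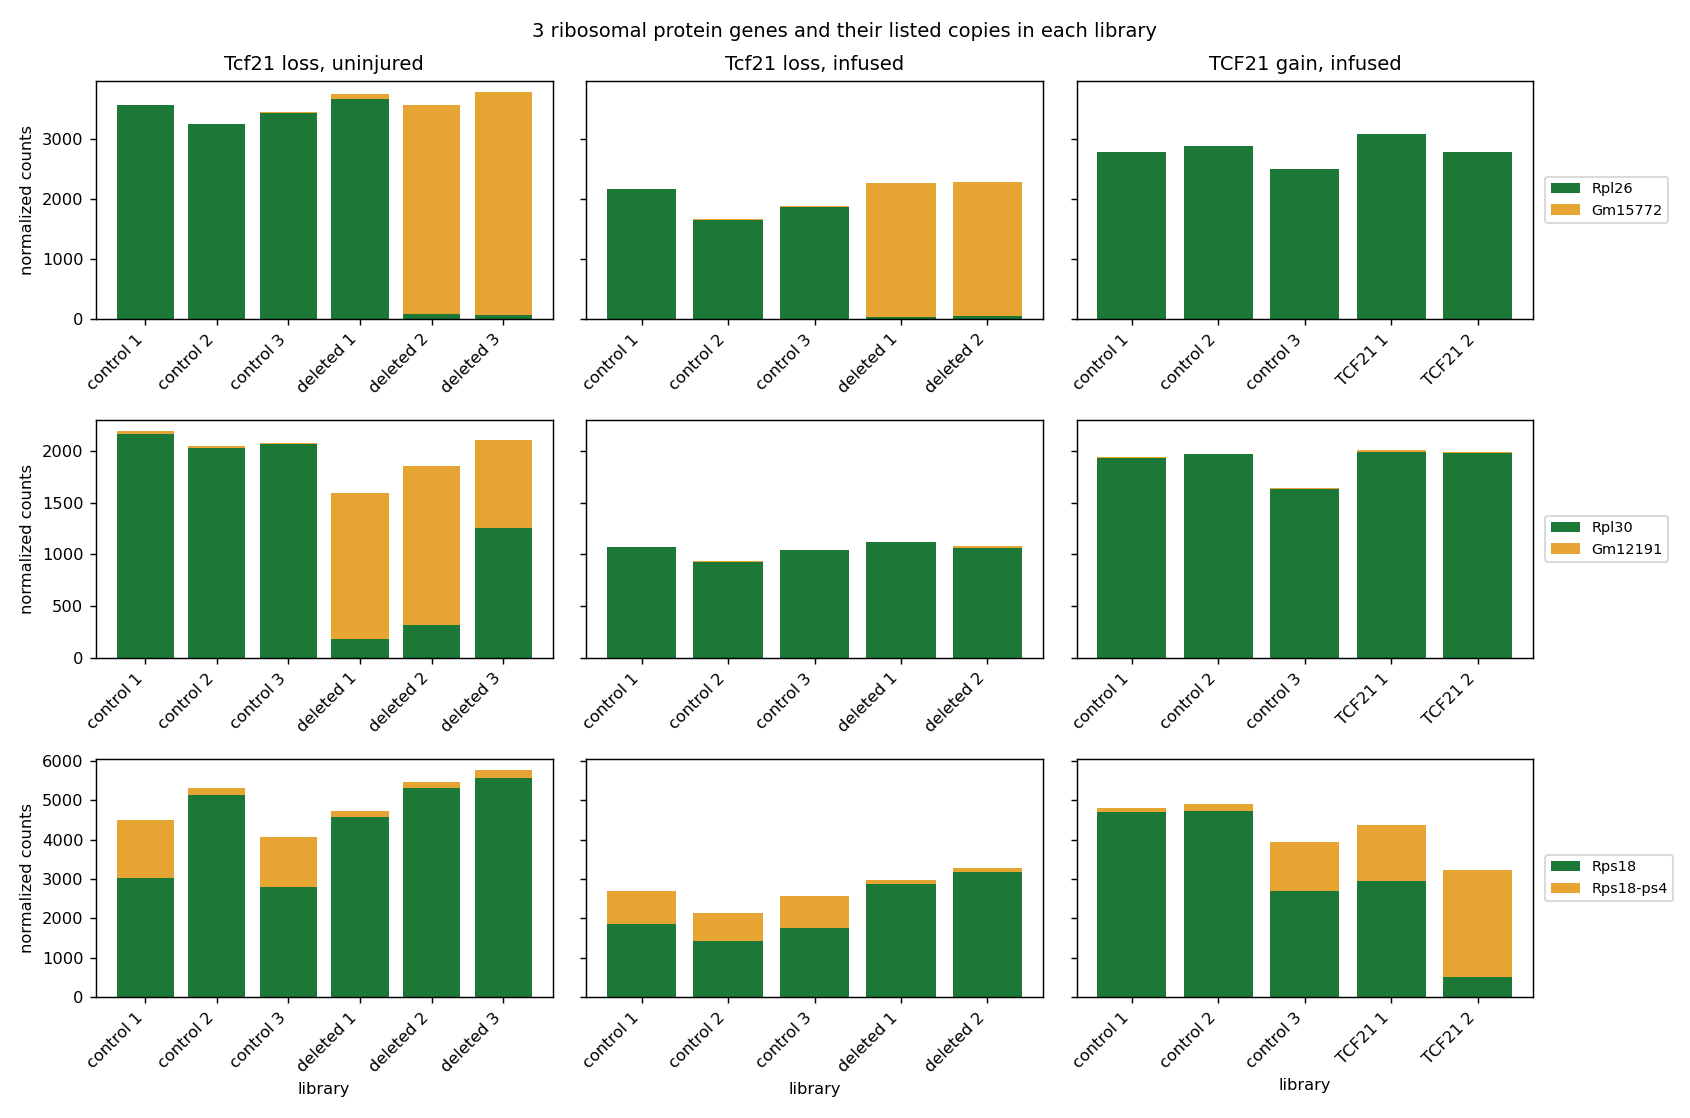
Normalized counts (vertical axis) of Rpl26, Rpl30 and Rps18 (green) with their listed copies stacked on top (orange) in each library (horizontal axis), by comparison. Gm15772 has no bar in the gain panel because it was not analysed there; the stacked totals are near even where the green part nearly vanishes, as for Rpl26 in 4 deleted libraries.

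After infusion, the ribosomal protein genes of the deleted fibroblasts lay above the control mean as a group. Of 72 tested genes 68 had a log2 fold change above 0, where 7402 of all 14799 genes did, and their median was 0.25 beside 0.00 for all genes. The middle 50% lay between 0.20 and 0.34. Past the threshold were 2 of 72: Rps18, higher, beside 0.324% of all genes, and Rpl26, lower, beside 0.588%. An unadjusted p under 0.05 was found for 17, with the share of all genes not given. The large subunit had a median of 0.24 (40 of 43 above 0) and the small subunit of 0.26 (28 of 29 above 0). The groups did not overlap, deleted higher, for 35 of 72 genes, beside 17.3% of all genes, and deleted lower for Rpl26 alone, beside 17.7%. Over the 42 tested genes with no listed gene of shared sequence the median was 0.26, and 41 lay above 0. These genes are not free of shared sequence, since copies without a row remain. Rps27 shared 98.7% of its 31-base stretches with Rps27rt, and Rpl10 shared 92.3% with Rpl10-ps3.

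Library by library the median deviation was 0.20, -0.19 and 0.00 in the controls, against 0.21 and 0.29 with Tcf21 deleted. Both deleted libraries were above the highest control, control 1, which lay close to the lower of them. The share of summed normalized counts was 0.600%, 0.471% and 0.533% in the controls, against 0.611% and 0.607% with Tcf21 deleted. The difference of 0.0746 percentage points was little larger than the SD of the controls (0.064 percentage points). Without control 2 the median was 0.17 and the difference in share 0.0427 points, and without control 1 they were 0.35 and 0.107 points.

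Short transcripts had higher fold changes in this table (Spearman's rho of -0.24 between length and log2 fold change across 14799 genes, 90.1% of them with a length), and ribosomal protein transcripts were short, with a median of 681 bases against 2604. With a smooth curve of fold change on length removed, the median of the 72 genes was 0.11. Markers of red cells and platelets (5 of 7 listed) summed to between 60.4 and 75.5 in the controls and between 155 and 389 in the deleted libraries, with Hba-a1 past the threshold. Myeloid markers (8 of 9 listed) summed to between 841 and 996 in the controls and between 450 and 766 in the deleted libraries, with Cd74 past the threshold, and endothelial markers (7 of 7 listed) to between 209 and 281 against 315 and 357. The part of these cells in the result was not tested.

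**Figure D3:**
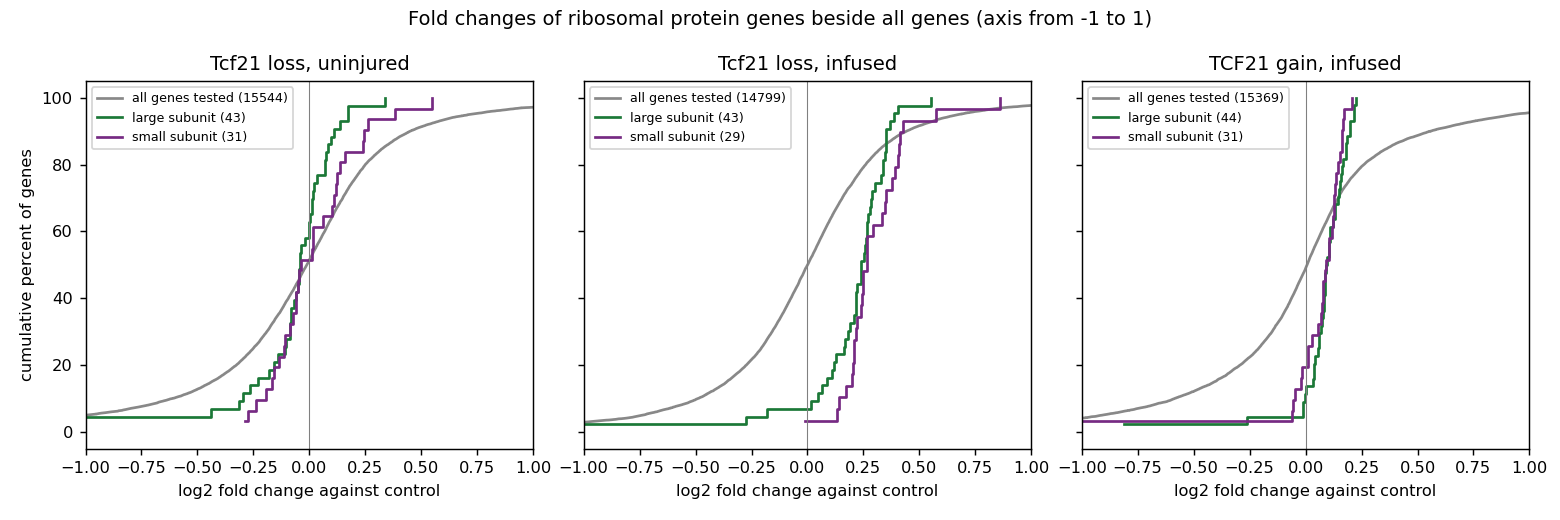
Cumulative percent of genes (vertical axis) against log2 fold change from control (horizontal axis, drawn from -1 to 1) for all genes tested, large subunit and small subunit genes in the 3 comparisons. In infused loss both subunits sit to the right of all genes, with medians of 0.24 and 0.26 beside 0.00.

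In infused loss Rpl26 had 2175, 1660 and 1875 normalized counts in the controls and 29.8 and 41.6 in the deleted libraries. It fell by 5.71 on the log2 scale (SE 0.19, adjusted p = 0.000113, limma), with no overlap. Gm15772 had 1.97, 3.05 and 5.92 in the controls and 2235 and 2252 in the deleted libraries. The sums were 2177, 1663 and 1881 in the controls and 2265 and 2293 in the deleted libraries. With the copy added, the log2 fold change was 0.27 (SE 0.13) with an adjusted p of 0.35 (limma), so the call ended and the direction turned. Over 17 alternatives its adjusted p ran from 5.95e-07 to 0.354.

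Rps18 had 1846, 1424 and 1755 in the controls and 2872 and 3178 in the deleted libraries. The groups did not overlap, and Rps18 rose by 0.86 on the log2 scale (SE 0.13, adjusted p = 0.047, limma), or 1.81-fold. Rps18-ps4 had 852, 700 and 824 in the controls and 106 and 113 in the deleted libraries, so it held 31.6% to 32.9% of the sum in the controls and 3.44% to 3.56% in the deleted libraries. With the copy added, the log2 fold change was 0.35 (SE 0.13) with an adjusted p of 0.26, where the 17 alternatives ran from 0.00366 to 0.356. The call was also lost without control 2, control 3, deleted library 1 or deleted library 2, at log2 fold changes of 0.75 to 0.93. Rpl30, with Gm12191 at 13.9 or less in every library, had 1068, 927 and 1041 in the controls and 1115 and 1064 in the deleted libraries.

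The other genes with the lowest p values all lay higher in the deleted libraries without passing the threshold. Rps27l, a paralogue of Rps27 that responds to p53, had 1685, 1359 and 1486 in the controls and 1910 and 2079 in the deleted libraries. Rps27 itself had 2165, 1536 and 1592 against 1931 and 2002, which overlap. Rpl38, which is required for translation of some Hox messenger RNAs, had 648, 431 and 564 against 793 and 792. Rpl12, of the base of the stalk, had 1036, 907 and 1029 against 1233 and 1266. Those 3 genes without overlap, and Rps2, had log2 fold changes of 0.34 to 0.55 and adjusted p values of 0.19 to 0.23 (limma, n = 3 and 2). Rps4l had the highest log2 fold change that did not pass, 0.57 (SE 0.24), with 1279, 727 and 879 against 1241 and 1559, which overlap. Rpl5 and Rpl11 had log2 fold changes of 0.19 (SE 0.10) and 0.28 (SE 0.11), with groups apart for both.

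Rps2, a small subunit protein near the entry of the messenger RNA, had 5643, 4913 and 5765 in the infused controls and 6402 and 7426 in the deleted libraries. Its 3 listed processed pseudogenes there (Gm6139, chr5:129622990-129623871, Gm45855 and Gm10420) summed to 1545, 1268 and 1596 in the controls and to at most 25.9 in the deleted libraries. The copies thus held 20.5% to 21.7% of the sum in the controls and 0.202% to 0.402% in the deleted libraries. Gm6139 itself fell by 6.48 on the log2 scale (SE 0.23, adjusted p = 0.000113, limma). Rps2 plus its copies had 7188, 6181 and 7360 against 6428 and 7441, a log2 fold change of 0.01 (SE 0.12), and the groups overlap. In the other arms the copies held more than 1% only in TCF21 library 1, with 20.2%.

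The genes with a listed pseudogene of the same symbol were also above 0 in infused loss, 9 of 9, with a median of 0.27. Apart from Rps18, none passed: Rpl17 and Rpl31 had log2 fold changes of 0.35 (SE 0.15) and 0.35 (SE 0.15), and Rpl27a, Rpl14 and Rps15a of 0.33 (SE 0.18), 0.26 (SE 0.15) and 0.27 (SE 0.20). Rpl13a, which leaves the ribosome to repress some inflammatory messenger RNAs, and Rps19, mutated in Diamond-Blackfan anaemia, had 0.27 (SE 0.15) and 0.25 (SE 0.13). Rpl39, at the exit of the peptide tunnel, had 714, 537 and 721 in the controls and 817 and 865 in the deleted libraries, with no overlap. With listed copies added to every gene that has them, the median of all 72 was 0.25 and 0 passed.

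Rpl29 and Rpl35a were the lowest after Rpl26, with values of -0.27 (SE 0.28) and -0.18 (SE 0.13) on the log2 scale. Rpl29 had 391 in deleted library 1 and 755 in deleted library 2, against 559 to 725 in the controls, so its low value rests on a single library. Rpl3, at the peptide-forming centre of the large subunit, had 0.02 (SE 0.11). Rpl3 had 5664, 4812 and 5266 in the controls and 5690 and 4938 in the deleted libraries, and the groups overlap.

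The loss effect with and without infusion was compared as an interaction over the 4 loss groups. It tests each gene's difference of differences, so levels of the separately normalized tables are not compared. Any other difference between the uninjured and the infused arm cannot be told apart from infusion. Of the 72 ribosomal protein genes 0 were past the threshold upward (limma, beside 0.0495% of 14130 genes) and 0 downward (beside 0.0991%), while 19 had an unadjusted p under 0.05. Their median difference was 0.29 beside 0.01 for all genes, and 66 of 72 lay above 0, that is, higher in infused than in uninjured loss, where 7284 of all genes did. Rps7 had a difference of 0.69 (SE 0.19), Rps29 of 0.67 (SE 0.20), Rpl22 of 0.53 (SE 0.16), Rpl11 of 0.44 (SE 0.12) and Rps9 of 0.44 (SE 0.14), with adjusted p from 0.27 to 0.31. Rps7 had 2587, 2619 and 2988 in uninjured controls and 2476, 2144 and 2105 in uninjured deleted libraries, all 3 lower than the controls. After infusion Rps7 had 1846, 1302 and 1474 in the controls and 1941 and 2106 in the deleted libraries, both higher. Rpl30 had the widest positive value, 2.44 (SE 0.76), and 0.31 (SE 0.16) with Gm12191 added. Without infused control 2 the median difference was 0.17.

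Under TCF21 gain the ribosomal protein genes stayed near their controls. Of 75 genes 0 were higher past the threshold (limma, beside 1.57% of 15369 genes) and 0 lower (beside 2.57%), and 3 had an unadjusted p under 0.05. The median log2 fold change was 0.09 beside 0.01 for all genes, with the middle 50% between 0.05 and 0.15, and 64 of 75 lay above 0, where 7841 of all genes did. Large and small subunit genes had medians of 0.09 and 0.09. The groups did not overlap, TCF21 higher, for 17 genes, beside 19.1% of all genes, and lower for 0, beside 20.1%. The libraries' median deviations were 0.13 and 0.07 with TCF21 and 0.07, 0.10 and -0.16 in the controls, so the groups overlap. Without control 3 the median log2 fold change was 0.01. Scaled to equal sums, it was 0.19 while all genes had 0.10, and the share of all called genes that were higher went from 38.0% to 56.1%.

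The share of summed normalized counts was 0.713% and 0.699% in the TCF21 libraries and 0.635%, 0.658% and 0.573% in the controls, with no overlap. The sums that it is divided by were 38030538 and 37429723 with TCF21. They were 40855254, 40970391 and 39422980 in the controls, all larger. The higher share is thus partly a matter of smaller sums. In the same libraries the 8 fibroblast markers summed to between 1815000 and 1831000 with TCF21 and between 2493000 and 2895000 in the controls. Tcf21 itself is among the 8 and rose, while 6 of them had log2 fold changes below 0. Cardiomyocyte markers (7 of 8 listed) summed to between 919 and 974 against 664 and 726, with Actc1 past the threshold. Of the 6 cardiomyocyte markers tested, 4 lay above 0 and 2 below, the lowest at -0.64. Mural markers summed to between 25200 and 27650 against 31780 and 38120, and markers of red cells and platelets (5 of 7 listed) to between 186 and 251 against 72.4 and 118. The part of these in the share was not tested. Without the 20 highest other genes in the sum, the difference in share was 0.0786 percentage points, against 0.0841 with them.

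**Figure D4:**
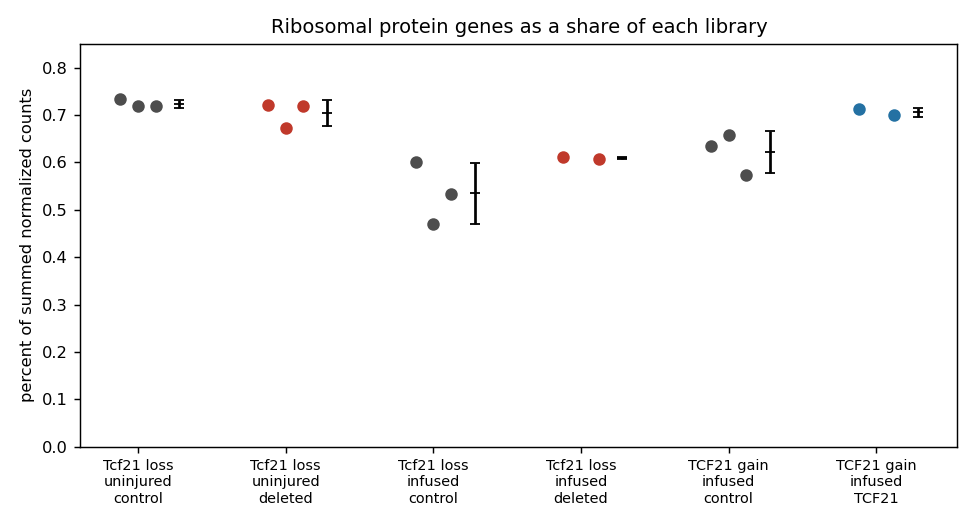
Percent of a library's summed normalized counts held by the ribosomal protein genes (vertical axis, from 0) in the 6 groups (horizontal axis); points are libraries, and bars show the mean with its SD. The TCF21 libraries, at 0.699% and 0.713%, lie above their controls, whose summed counts were larger. The infused loss controls are the most spread, from 0.471% to 0.600%.

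In the gain arm Rps18 was again low where its copy was high. It had 4708, 4727 and 2709 in the controls and 2959 and 519 with TCF21, a log2 fold change of -1.66 (SE 0.64, adjusted p = 0.21, limma). Rps18-ps4 had 105, 172 and 1244 in the controls and 1411 and 2720 with TCF21. The copy thus held 2.18% and 3.51% of the sum in controls 1 and 2, 31.5% in control 3, 32.3% in TCF21 library 1 and 84.0% in TCF21 library 2. Added together they had a log2 fold change of -0.27 (SE 0.15). Rpl26 had 2790, 2894 and 2496 in the controls and 3084 and 2787 with TCF21, a log2 fold change of 0.11 (SE 0.10), and Gm15772 was not analysed in that arm. Rpl29 had 1724, 1037 and 1350 against 527 and 1109 (adjusted p = 0.22, limma), low in TCF21 library 1, and its log2 fold change was -0.77 (SE 0.31) with its copies added, against -0.81 (SE 0.32) without them.

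Rpl5 had the smallest p of the gain arm, with 4534, 4632 and 4181 in the controls and 5142 and 5200 with TCF21, apart from the controls but with an adjusted p of 0.20 (limma). Rpl13 had 10566, 10995 and 10401 against 12094 and 12108. Rpl34 was also apart, with a log2 fold change of 0.23 (SE 0.11). Rpl28 had 0.22 (SE 0.15) with overlap, and Rps4x, on the X chromosome, 0.15 (SE 0.10). Rpl10 had 8261, 8501 and 7457 against 8800 and 8380, which overlap. Rpl39l had 9.72, 17.9 and 10.9 against 11.1 and 9.30, low in all 5 libraries.

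Ribosomal proteins whose symbols fall outside the rule (10 genes, among them the stalk proteins Rplp0, Rplp1 and Rplp2, Rpsa, Rack1 and Fau) were described in the same way. In infused loss 10 of 10 lay above 0 with a median of 0.24, in uninjured loss 7 of 10 with a median of 0.13 and in gain 7 of 10 with a median of 0.04, and 0 of 10 passed in any of these (limma). Unadjusted p was under 0.05 for 2 of them in infused loss, 1 in uninjured loss and 1 in gain. Rpl36al had a log2 fold change of 0.56 (SE 0.18) in infused loss, and Rplp0, Rplp1 and Rplp2 of 0.25 (SE 0.11), 0.23 (SE 0.13) and 0.36 (SE 0.17). In gain, Rpsa had 0.27 (SE 0.09) and Rack1, a scaffold on the small subunit, 0.19 (SE 0.08). Rpl22l1, the paralogue of Rpl22, had -0.02 (SE 0.15), 0.36 (SE 0.16) and -0.15 (SE 0.17) in uninjured loss, infused loss and gain, where Rpl22 had -0.30 (SE 0.12), 0.24 (SE 0.11) and 0.03 (SE 0.10).

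Proteins of the mitochondrial ribosome, which translates the messenger RNAs of mitochondrial DNA, served as a second set of 78 genes with symbols that start with Mrpl or Mrps. Their median was 0.11 in uninjured loss (62 of 78 above 0), 0.23 in infused loss (70 of 77) and 0.06 in gain (54 of 78), and 0 passed in each (limma, with 10, 19 and 4 at an unadjusted p under 0.05). In infused loss 41 of 77 did not overlap between groups, deleted higher, beside 17.3% of all genes. Their libraries' median deviations in that arm were 0.08, -0.11 and 0.02 in the controls and 0.18 and 0.25 in the deleted libraries. Translation factors whose messenger RNAs are of the terminal oligopyrimidine class (17 genes) had medians of -0.00090, 0.15 and 0.06 in the same order. Hnrnpa1, an RNA-binding protein, rose in uninjured loss (log2 fold change 0.39, SE 0.08, adjusted p = 0.040) with 1621 ± 34.1 (SD, n = 3) normalized counts in the controls and 2124 ± 69.4 (SD, n = 3) in the deleted libraries. It was the only gene of that list past the threshold in any of the 3 comparisons (0 and 1 had an unadjusted p under 0.05 in infused loss and gain).

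Genes that build ribosomes, rather than form part of them, were highest in the gain arm. There the ribosome assembly list (35 genes) had a median of 0.21, 33 of 35 lay above 0, and 23 did not overlap between groups, TCF21 higher, beside 19.1% of all genes. None passed there (limma; 8 had an unadjusted p under 0.05). Tsr1 had 1174 ± 65.5 (SD, n = 3) in the controls and 1535 ± 62.4 (SD, n = 2) with TCF21, a log2 fold change of 0.39, and its adjusted p was 0.077 by limma. Nop58, a core protein of small nucleolar ribonucleoproteins, and Grwd1 had 0.39 (SE 0.11) and 0.48 (SE 0.13). In uninjured loss the assembly list had a median of -0.08, and 1 gene, Rrs1, which acts in large subunit assembly, fell by 0.85 on the log2 scale (SE 0.12, adjusted p = 0.00945, limma), from 1164 ± 98.3 (SD, n = 3) to 644 ± 50.6 (SD, n = 3). Nolc1 had -0.48 (SE 0.11, adjusted p = 0.055) and Ncl, nucleolin, -0.29 (SE 0.09). In infused loss the list had a median of 0.11 and 0 of 34 passed (4 at an unadjusted p under 0.05).

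RNA polymerase I, which transcribes ribosomal RNA, and its factors (12 of 15 tested) had medians of -0.21 in uninjured loss, -0.0011 in infused loss and 0.07 in gain. In uninjured loss 10 of 12 lay below 0. None passed in any comparison (limma; 3, 2 and 0 had an unadjusted p under 0.05). The subunit gene Polr1e had 311 ± 13.7 (SD, n = 3) in uninjured controls and 214 ± 20.3 (SD, n = 3) in deleted libraries, and 132 ± 4.15 (SD, n = 3) and 184 ± 2.85 (SD, n = 2) after infusion. Its interaction value was 1.02 (SE 0.22, adjusted p = 0.16, limma). Ubtf had log2 fold changes of -0.21 (SE 0.12), -0.13 (SE 0.13) and -0.06 (SE 0.09), and Rrn3 of -0.21 (SE 0.14), 0.07 (SE 0.11) and 0.10 (SE 0.10).

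Of the mTOR pathway and Myc list (21 genes), Deptor, an inhibitor that binds mTOR, fell by 1.48 on the log2 scale in uninjured loss (SE 0.22, adjusted p = 0.014, limma) and by 0.48 in gain (SE 0.10, adjusted p = 0.044). It was the only gene of the list past the threshold in these comparisons, and in infused loss 0 of 20 passed, with 5 at an unadjusted p under 0.05. Mtor had -0.39 (SE 0.13) in uninjured loss, -0.52 (SE 0.15) in infused loss and 0.00 (SE 0.10) in gain. Larp1 had -0.21 (SE 0.15), 0.04 (SE 0.11) and 0.44 (SE 0.16), and Eif4ebp1, a translation repressor that mTOR inactivates, 0.21 (SE 0.10), 0.31 (SE 0.15) and 0.21 (SE 0.09). Myc, a transcription factor that drives ribosome production, had 0.23 (SE 0.13), -0.55 (SE 0.19) and -0.59 (SE 0.26), and Mycn 1.19 (SE 0.28, adjusted p = 0.062) in gain.

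**Figure D5:**
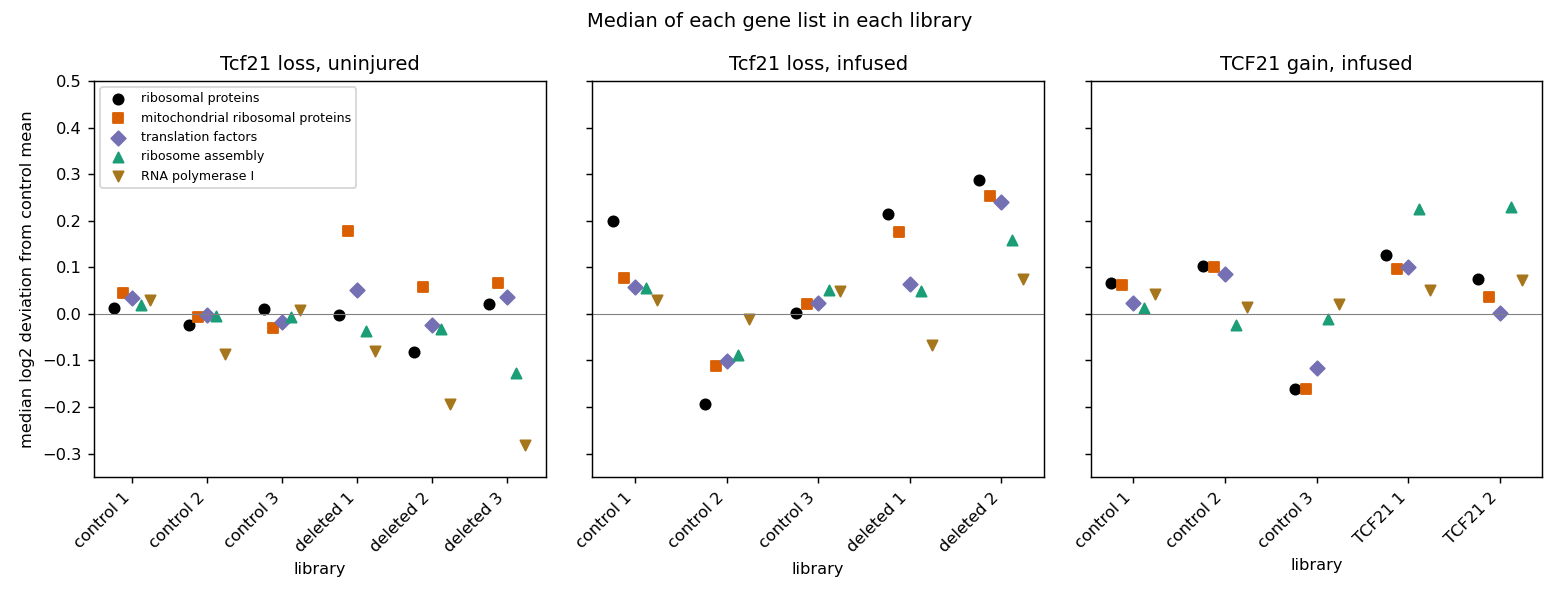
Median deviation from the control mean, log2(value + 1), of 5 gene lists (vertical axis) in each library (horizontal axis), by comparison. In infused loss and in gain, controls included, the cytoplasmic and mitochondrial ribosomal proteins move together from library to library. In the TCF21 libraries the assembly list, at 0.23 and 0.23, lies above the ribosomal proteins, at 0.13 and 0.07.

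The starts of the genes were read from RefSeq windows of 250 bases before to 50 bases after each annotated start (GRCm38.p6), which held 66 windows for 55 of the 75 genes. A C followed by at least 5 further pyrimidines was sought on the strand that reads as the RNA. This run, beginning from 10 bases before to 20 bases after the annotated start, stood in 34 of 66 windows (51.5%). It stood in 24.3% of all 32851 windows and in 30.7% of the 75 windows of mitochondrial ribosomal protein genes. Of the genes with low p in infused loss, Rpl26 and Rps27l had no window with the run. Windows of 30 bases that hold the run are shown for Rps18, for 3 genes with low p in infused loss and for Rpl11. Capitals mark the run, and positions are chr17:33955643-33955672, chr11:114668575-114668604, chr2:32961709-32961738, chr17:24720062-24720091 and chr4:136053355-136053384 in the order of the lines.
Rps18: ttccgCTCTCTCTTCCacaggaggcctaca
Rpl38: tcgttCTTTCCCCgttctcttcggttctca
Rpl12: tccgtCTTTTCggctttcggctcggaggag
Rps2: tcgcgCTTCTTggagcactataaattgtcc
Rpl11: gaagtCTCCCTCTCTCTTCCTgttctccac

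These runs describe letters and not measured starts. CAGCTG, a form of the E-box that basic helix-loop-helix factors bind and the same on both strands, was in 2 of the 66 windows (3.03%), beside 16.3% of all windows and 16.0% of those of mitochondrial ribosomal protein genes. CCGGAAG, searched on both strands, was in 24 of 66 (36.4%), beside 8.86% of all windows and 34.7% of the mitochondrial set. TATAAA, on both strands, was in 7.58% of the windows beside 13.6% of all. CCGGAAG on the other strand reads CTTCCGG and can share letters with a pyrimidine run, and such overlaps were kept. A missing match says only that these letters are not in the window.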

How the data were processed

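RNA was isolated with a miRNeasy micro kit and amplified with SMART-seq v4, per the labels' protocols. The deposited values are a normalized signal, counts per gene that the authors scaled within each of 3 tables. The submitters' processing notes name kallisto, DESeq2 and GRCm38. Their versions, and the gene annotation, were not given in the sources used here. Values are not whole numbers and whole reads were not recovered (35.6% to 67.5% of low values lay within 0.03 of a multiple of the best step), so no count model was used and read depth is unknown. Genes with a mean of at least 10 were tested on log2(value + 1), a scale that understates the change of low genes, with limma 3.58.1 in R 4.3.3 (2 groups per fit, 4 for the interaction, moderated variances with a trend, two-sided p adjusted by Benjamini-Hochberg over all genes of a table, threshold 0.05). The ribosomal protein genes and lists were chosen with earlier results of these data known. Copies are listed genes annotated or named as pseudogenes whose GENCODE vM21 transcripts hold at least 10% of a gene's 31-base stretches, and Rpl27a-ps4, taken by its symbol alone. Adding their values was chosen after seeing the data. Named genes are, per comparison, up to 6 with the smallest p, the 3 highest and the 3 lowest by fold change, all past the threshold, a panel of paralogues and well-studied proteins, those with a listed pseudogene of the same symbol, and up to 3 per list. Other genes, and the copies, were named after their values were seen, and a few genes that the rule would name are not reported here. The fit was tested on simulated data. Alternatives varied the pseudocount, filter, scaling, length, variance model and weights, blocked by replicate number and left out each library.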

Additional observations from a re-analysis of the deposited data

How the results depend on the processing

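The median log2 fold change of the ribosomal protein genes stayed above 0 in infused loss, gain and the interaction under every alternative run (18, 18 and 24), and those medians moved by less than the spread between libraries, apart from the interaction median, at 0.41 with library weights and 0.17 without infused control 2. Leaving out a library gave 0.167 to 0.349 in infused loss, 0.00771 to 0.151 in gain and 0.173 to 0.387 for the interaction. The uninjured median was -0.13 with the length curve removed and -0.0523 to 0.000851 without a library. In uninjured loss the number of ribosomal protein genes called (1, Rpl10) was 2 with a pseudocount of 10 or a filter at a mean of 50, 0 with equal sums, quantile normalization, the length curve removed, the replicate block or no variance trend, 4 with library weights (Rpl10 and Rps6 higher, Rpl26 and Rpl30 lower) and 0 to 3 without a library. In infused loss the 2 called became 1 with a filter at a mean of 50, no variance trend or without the 9 genes set apart, 0 with copies added or without the 31 genes set apart for a listed gene of shared sequence or of pseudogene symbol, and 1 to 2 without a library; the value of Rpl26 was 0.27 with its copy added. In gain 0 became 1 (Rps18, lower) with the replicate block, and 0 to 1 without a library; the interaction had 0 to 1. The cause of these changes was not tested. Tcf21 missed the threshold in 2 of 17 alternatives in infused loss and 1 of 17 in gain. Over all genes, calls numbered 557, 135, 637 and 21 in uninjured loss, infused loss, gain and the interaction. With no variance trend the first 3 were 94, 72 and 25, and with library weights the 4 were 949, 308, 1013 and 39. Without a library they ran from 88 to 875, 32 to 175, 118 to 819 and 12 to 58. Differences in the share of counts ran from -0.0282 to -0.00407, 0.0427 to 0.107 and 0.0597 to 0.102 percentage points in the 3 comparisons without a library.

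Whether replicate numbers in the labels pair the libraries could not be decided. Same-numbered treated and control libraries had correlations of their deviations from group means of -0.054 to 0.025 in uninjured loss. The values were -0.042 and 0.18 in infused loss and 0.062 and 0.095 in gain. In these 2 arms the 2 treated libraries deviate by opposite amounts, so their correlations mirror each other. Differently numbered libraries had -0.036 to 0.078 in uninjured loss, -0.23 to 0.23 in infused loss and -0.095 to 0.033 in gain. With the replicate block, calls over all genes numbered 227, 1462, 1842 and 79, and those of ribosomal protein genes 0, 2, 1 and 0. In infused loss and gain, with 3 control and 2 treated libraries, the block leaves little to estimate each gene's spread. These counts therefore cannot decide the pairing. Groups of 2 or 3 libraries and unknown read depth limit what could be detected.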
